A study of Mus musculus with 8 samples.

Results

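The FoxO transcription factors and the antioxidant genes tied to them were followed across 3 sorted populations of mouse bone marrow stem and progenitor cells. The 10 genes were the factors Foxo1, Foxo3 and Foxo4, the superoxide dismutases Sod1 and Sod2, the peroxide-removing enzymes Cat and Gpx1, the thioredoxin inhibitor Txnip, and the sestrins Sesn1 and Sesn3. They were taken by symbol from probe sets annotated with a single gene, keeping the probe set with the highest mean where there were several. All 10 were found among 22180 named genes, and all 10 passed the filter on dim probe sets that left 17576 genes for testing. None of the 10 differed between populations once p-values were adjusted over all genes. Foxo3 was the member with the smallest unadjusted p, with every MPP array above every ST-HSC and LT-HSC array.

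The series asked how Chd7 is expressed in these cells and measured total RNA of C57/Bl6 mice, given as 8 weeks old, on 8 single-colour microarrays. Multipotent progenitors (MPP, 3 arrays) were sorted as CD48+CD150-CD34+, short-term stem cells (ST-HSC) as CD48-CD150+CD34+ on 3 arrays, and long-term stem cells (LT-HSC) as CD48-CD150+CD34- on 2 arrays numbered 1 and 3. All 3 gates also required absence of lineage markers and presence of Sca1 and Kit. The labels disagree on history, which applies to every group alike: each description gives no treatment, while a shared protocol gives 2 hours of DMSO and then transplantation, with cells taken from primary recipients after 1 year and from secondary recipients after 3 months. No label says whether arrays came from separate mice or pools, so p-values cover the spread between these arrays only, which may be technical. All values are log2 RMA signals, where RMA is a method that corrects, normalizes and summarises probe intensities, and a difference of 1 is a doubling of signal.

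FoxO factors bind DNA through a forkhead domain. Growth factor signalling through PI3K and AKT phosphorylates them and holds them outside the nucleus, and they enter it when that signalling is low. In the nucleus they drive genes for cell cycle arrest, survival and removal of reactive oxygen species. In mouse bone marrow, loss of FoxO factors, and of Foxo3 alone, is known to raise reactive oxygen species in stem cells and to impair their long-term function.

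Short promoter stretches show the motifs that these genes carry, from RefSeq windows on GRCm38.p6 in which the 250 bases before each annotated start were searched on both strands. A window was given for 9 of the 10 members (Foxo4 had none), with 10 windows in all because Sesn1 had a pair. The FoxO element was spelled TGTTTAC, the core of the antioxidant response element TGACNNNGC and the GC box GGGCGG, and letters of different motifs did not overlap in these windows. The FoxO element stood in 1 of 10 member windows, that of Txnip, against 3.17% of all 32851 windows. The antioxidant core stood in 1 of 10, that of Sod1, against 10.2% of all. The GC box, which Sp family factors bind, stood in 9 of 10, against 32.7% of all. The stretches run 5′ to 3′ on the gene's strand with the named motif, or its reverse complement, in capitals.
Txnip, chr3:96557797-96557876 (+), FoxO element: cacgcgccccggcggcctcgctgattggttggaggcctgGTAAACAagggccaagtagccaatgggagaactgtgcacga
Sod1, chr16:90220682-90220731 (+), antioxidant response element core: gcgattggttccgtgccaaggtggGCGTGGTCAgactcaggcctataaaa
Foxo3, chr10:42276696-42276815 (-), GC boxes: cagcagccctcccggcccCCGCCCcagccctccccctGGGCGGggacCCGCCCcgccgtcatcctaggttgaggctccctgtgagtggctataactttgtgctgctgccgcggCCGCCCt
The Txnip stretch is shown because Txnip was the member with the lowest signal in ST-HSC relative to LT-HSC, and the Foxo3 stretch because Foxo3 had the smallest p. A match gives letters only, and no factor binding was measured here.

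The gate genes set the frame for these comparisons. Slamf1, which encodes CD150, averaged 5.06 ± 0.36 in MPP (SD, n = 3), 7.34 ± 0.11 in ST-HSC (SD, n = 3) and 7.77 ± 0.01 in LT-HSC (SD, n = 2). Cd48 read 7.84, 6.65 and 6.96 in MPP, 7.49, 6.51 and 6.57 in ST-HSC, and 5.92 and 6.63 in LT-HSC. MPP and ST-HSC overlapped for Cd48, with ST-HSC replicate 1 above MPP replicates 2 and 3, although ST-HSC were sorted as CD48-. Cd34 read 8.50 in LT-HSC replicate 1 but 10.20 in LT-HSC replicate 3, above the ST-HSC arrays at 9.55, 10.15 and 10.07, although LT-HSC were sorted as CD34-. The first ST-HSC and LT-HSC arrays stood apart: their median correlations to the rest were 0.968 and 0.956 and their interquartile ranges 2.73 and 2.49. The remaining arrays had 0.976 to 0.985 and 2.82 to 3.06. The replicate 1 arrays of all 3 populations carried more signal of mature granulocytes and monocytes. The mean of 18 markers of these cells, relative to all arrays, was 0.61 to 1.12 on the replicate 1 arrays and -0.84 to -0.27 on the others. For 12 stroma and endothelium markers these ranges were 0.25 to 1.52 and -0.50 to -0.26, and for 10 erythroid markers 0.11 to 0.95 and -0.62 to 0.01. Megakaryocyte markers went with population in their mean, though not in every gene. Their mean over 8 genes was -0.77 to -0.36 in MPP, 0.31 to 1.06 in ST-HSC and -0.18 to 0.10 in LT-HSC. Limma called 3 of 8 lower in MPP than in ST-HSC, against 0.125% of all genes. It called 2 of 8 higher in ST-HSC than in LT-HSC (0.848% of all genes) and 1 of 8 lower in MPP than in LT-HSC (0.119%). For 1 of 8 the ST-HSC minus LT-HSC difference was -0.75, without overlap. Ppbp read 9.14 on ST-HSC replicate 1 but 6.46 and 6.93 on ST-HSC replicates 2 and 3. The part of these markers in the members' differences was not tested. In such bulk samples fewer cells of a type and less RNA per cell cannot be told apart.

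**Figure D1:**
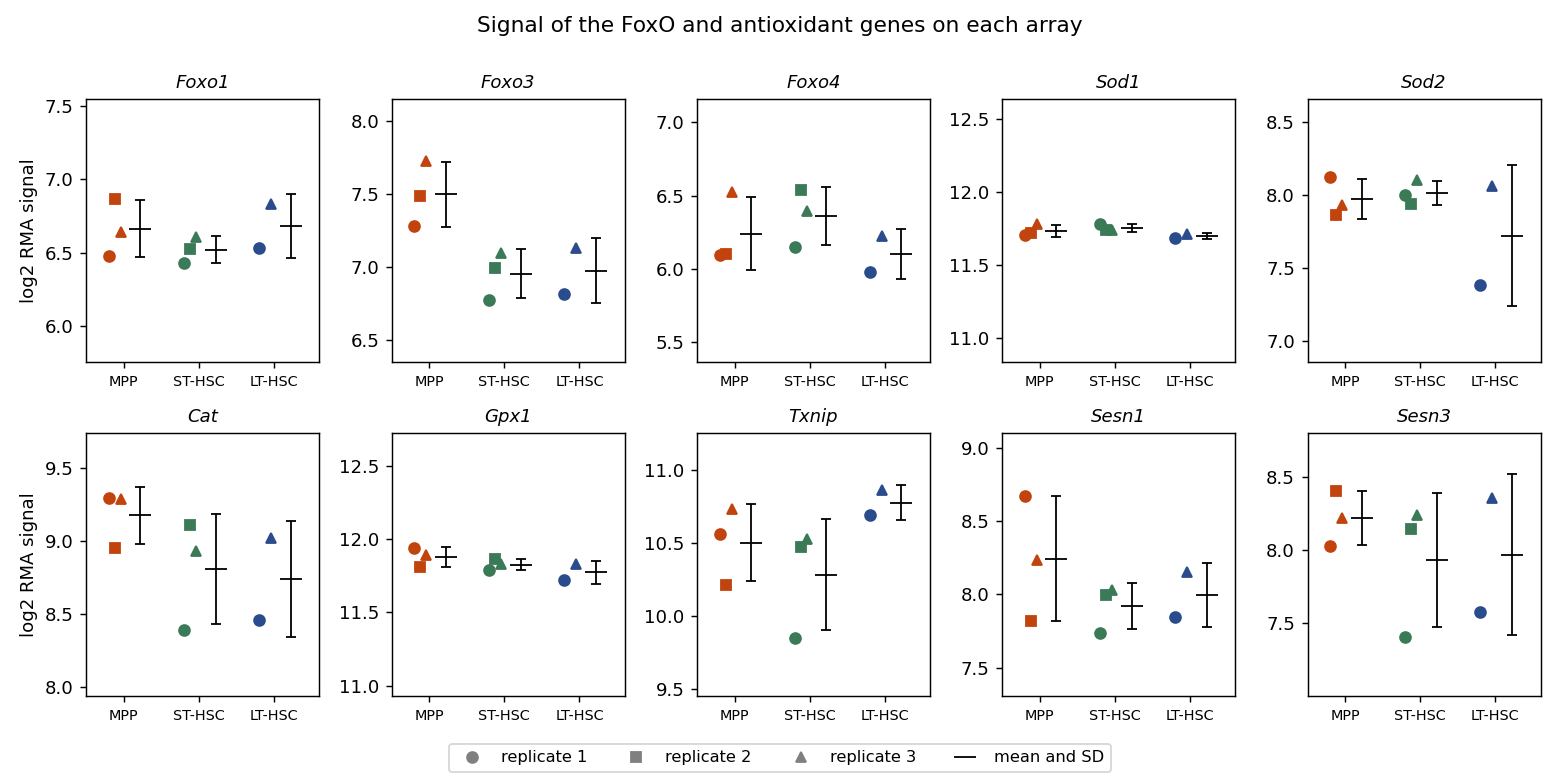
Log2 RMA signal (vertical axis, the same span in each panel) of the 10 genes on each array, with MPP, ST-HSC and LT-HSC from left to right. Symbols give the replicate number and the bar gives mean and SD. Foxo3 is the panel in which all MPP points, 7.28 to 7.72, lie above all others, and Sod1 and Gpx1 are nearly flat.

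Among the FoxO factors, Foxo3 read 7.28, 7.48 and 7.72 in MPP replicates 1, 2 and 3, against 6.77, 6.99 and 7.10 in ST-HSC replicates 1, 2 and 3 and 6.82 and 7.13 in LT-HSC replicates 1 and 3. No MPP array overlapped either stem cell population, and the ST-HSC and LT-HSC arrays overlapped. Foxo3 is the family member best known for maintaining stem cell quiescence in mouse marrow. Its MPP minus ST-HSC difference was 0.54 (SE 0.18, 95% interval 0.15 to 0.93, 1.46-fold, unadjusted p = 0.0108), with a limma adjusted p of 0.39. Its MPP minus LT-HSC difference was 0.52 (SE 0.20, 95% interval 0.09 to 0.96, 1.44-fold, unadjusted p = 0.0231), with a limma adjusted p of 0.407. The F test over the 3 populations gave an unadjusted p of 0.0201 and a limma adjusted p of 0.337. The ST-HSC minus LT-HSC difference was -0.02 (95% interval -0.46 to 0.42).

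The Foxo3 differences kept their sign under all 19 alternatives to the processing in both MPP comparisons, but many of these could not have turned it. Every MPP array lay above all others, so leaving arrays out or weighting them could not reverse the sign. Changing the filter or the probe set rule leaves these differences as they are. So does a prior spread that follows intensity, or a fit to the compared populations only. Chiefly rescaling of the arrays could have turned the sign. MPP minus ST-HSC lay between 0.43 and 0.65, and its limma adjusted p lay between 0.0378, reached when noisier arrays were given less weight, and 1. MPP minus LT-HSC lay between 0.36 and 0.68, with a limma adjusted p from 0.0978 to 1. Where an LT-HSC array is left out, the 1 remaining is assumed to vary like the other populations. With the replicate 1 arrays of all populations left out, the arrays rich in granulocyte markers, the differences were 0.56 against ST-HSC and 0.47 against LT-HSC (limma adjusted p = 0.216 and 0.617). With the replicate number as a block, the limma adjusted p was 0.154 and 0.235. The genes whose profile over the 8 arrays was most like that of Foxo3 were Cd300a, an inhibitory receptor of leukocytes (Pearson r = 0.956), 5830432E09Rik (0.953) and Lrp5, a Wnt co-receptor (0.951). These correlations are descriptions over 8 arrays that share population and array quality.

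Foxo1 read 6.48, 6.87 and 6.64 in MPP, 6.43, 6.53 and 6.61 in ST-HSC, and 6.53 and 6.83 in LT-HSC. Its 3 populations overlapped. MPP minus LT-HSC gave -0.02 (95% interval -0.43 to 0.39), ST-HSC minus LT-HSC gave -0.16 (-0.57 to 0.25) and MPP minus ST-HSC gave 0.14 (-0.22 to 0.51). Foxo1 is known in blood for its part in B lymphocyte development. A second Foxo1 probe set, dimmer and not used in the tests, gave another picture: 5.63, 5.66 and 5.68 in MPP, 5.38, 5.34 and 5.29 in ST-HSC, and 5.49 and 5.83 in LT-HSC. There the ST-HSC arrays lay below all arrays of both other populations, by 0.32 in the mean against each. The probe sets therefore disagreed on whether ST-HSC stood apart.

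Foxo4, which lies on the X chromosome, read 6.09, 6.10 and 6.53 in MPP, 6.14, 6.54 and 6.39 in ST-HSC, and 5.98 and 6.22 in LT-HSC. All 3 pairs of populations overlapped. The ST-HSC minus LT-HSC difference was 0.26 (95% interval -0.19 to 0.71, limma adjusted p = 0.673), the MPP minus LT-HSC difference 0.14 and the MPP minus ST-HSC difference -0.12. Over the 3 comparisons the intervals reached from -0.57 to 0.51 for Foxo1 and from -0.52 to 0.71 for Foxo4, so differences up to those sizes lay within them.

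The superoxide dismutases convert superoxide to hydrogen peroxide, Sod1 in the cytosol and Sod2 in mitochondria. Sod1 read 11.70, 11.72 and 11.78 in MPP, 11.78, 11.74 and 11.74 in ST-HSC, and 11.68 and 11.72 in LT-HSC. Its whole range over the 8 arrays was 0.10, and only 5 of the 17576 genes tested had a narrower range. The ST-HSC arrays lay above the LT-HSC arrays without overlap, but by 0.05 in the mean (95% interval -0.29 to 0.40, limma adjusted p = 0.928). Limma draws each gene's spread toward that of all genes. This interval is therefore wider than the SD of Sod1 within populations, 0.02 to 0.04, would give by itself. The highest value in the table was 12.94, and whether bright probe sets compress differences was not tested.

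Sod2 read 8.13, 7.86 and 7.93 in MPP, 8.00, 7.94 and 8.10 in ST-HSC, and 7.38 and 8.06 in LT-HSC. LT-HSC replicate 1 was low by itself, while LT-HSC replicate 3 lay within the range of the other populations. The differences from LT-HSC were 0.25 for MPP and 0.29 for ST-HSC (limma adjusted p = 0.648 for each). They became -0.09 and -0.05 when that low array was left out, so the lower LT-HSC mean rested on a single array.

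Catalase, encoded by Cat, and the glutathione peroxidase Gpx1 break down hydrogen peroxide. Cat read 9.29, 8.95 and 9.29 in MPP, 8.39, 9.11 and 8.93 in ST-HSC, and 8.46 and 9.02 in LT-HSC. Replicate 1 was the lowest array in both stem cell populations, while MPP replicate 1 was not low. The MPP mean exceeded that of LT-HSC by 0.44 (SE 0.25, 95% interval -0.12 to 0.99, limma adjusted p = 0.541) and that of ST-HSC by 0.37 (SE 0.22, 95% interval -0.13 to 0.86, limma adjusted p = 0.924). Both were smaller without the replicate 1 arrays of all populations, at 0.10 each.

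Gpx1 read 11.94, 11.81 and 11.89 in MPP, 11.79, 11.86 and 11.83 in ST-HSC, and 11.72 and 11.83 in LT-HSC. It was nearly as flat as Sod1, with a range of 0.22 that 99.3% of genes exceeded. MPP exceeded LT-HSC by 0.11 and ST-HSC by 0.05, and ST-HSC exceeded LT-HSC by 0.05, and the 95% intervals lay between -0.30 and 0.46. These intervals, like that of Sod1, draw on the spread of other genes.

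Txnip binds and inhibits thioredoxin and restrains glucose uptake. It read 10.56, 10.21 and 10.73 in MPP, 9.85, 10.47 and 10.53 in ST-HSC, and 10.69 and 10.86 in LT-HSC. Both LT-HSC arrays lay above all ST-HSC arrays, while MPP overlapped both populations. The ST-HSC minus LT-HSC difference was -0.49 (SE 0.24, 95% interval -1.02 to 0.03, unadjusted p = 0.0644, limma adjusted p = 0.481). It was -0.27 without ST-HSC replicate 1, the lowest array, and -0.36 without the replicate 1 arrays of all populations. MPP lay at -0.27 relative to LT-HSC (limma adjusted p = 0.656) and at 0.22 relative to ST-HSC (limma adjusted p = 0.999).

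A second Txnip probe set is also annotated to Gm15441 and was therefore outside the rule. It read 6.57, 6.26 and 6.75 in MPP, 5.27, 6.71 and 6.65 in ST-HSC, and 6.61 and 6.82 in LT-HSC. ST-HSC replicate 1 was again the lowest array there, while ST-HSC replicates 2 and 3 lay between the LT-HSC arrays. The genes most like Txnip over the 8 arrays were Loxl3, a lysyl oxidase (Pearson r = 0.979), Ifitm3, an interferon-induced membrane protein (0.976), and Zkscan8, a zinc finger gene (0.969), as a description only.

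The sestrins are stress-induced proteins that restrain the growth kinase complex mTORC1. Sesn1 read 8.67, 7.82 and 8.24 in MPP, 7.74, 8.00 and 8.03 in ST-HSC, and 7.84 and 8.15 in LT-HSC. MPP replicate 1 was the highest array and MPP replicate 2 the second lowest, so the MPP arrays spanned nearly the whole range. The MPP minus ST-HSC difference of 0.32 (95% interval -0.16 to 0.80, limma adjusted p = 0.963) became 0.11 without MPP replicate 1.

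Sesn3, a FoxO target in mouse cells, read 8.03, 8.40 and 8.22 in MPP, 7.40, 8.15 and 8.24 in ST-HSC, and 7.58 and 8.36 in LT-HSC. The replicate 1 arrays of ST-HSC and LT-HSC lay far below the other arrays of their populations, by more than the population means differed. MPP lay 0.25 above LT-HSC (95% interval -0.39 to 0.89, limma adjusted p = 0.741), and the difference turned to -0.14 once LT-HSC replicate 1 was left out. The ST-HSC minus LT-HSC difference was -0.04 and the MPP minus ST-HSC difference 0.29 (limma adjusted p = 0.999).

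**Figure D2:**
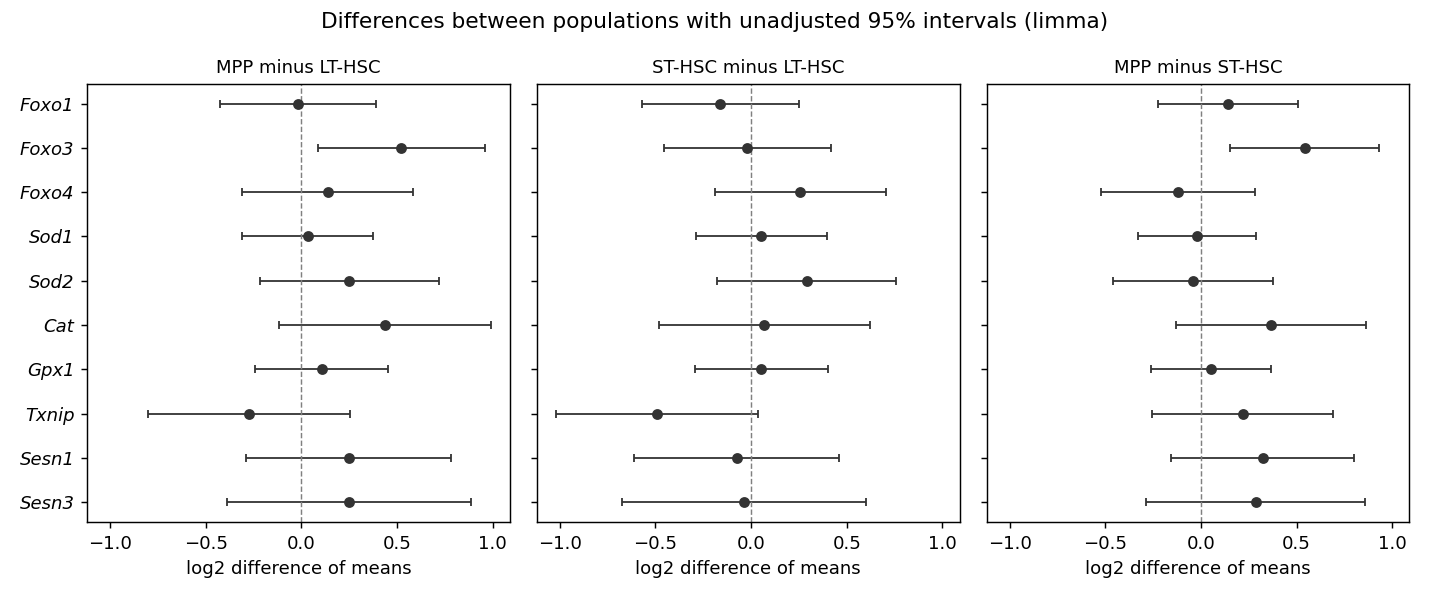
Log2 difference of population means (horizontal axis) for each of the 10 genes in the 3 comparisons; points are estimates and bars are unadjusted 95% intervals from limma over all 8 arrays. Apart from Foxo3 in both comparisons with MPP, the bars include 0.

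As a set, 0 of 10 members passed in MPP minus LT-HSC, where 0.125% of all genes tested passed (22 genes), 0.00569% higher and 0.119% lower. In ST-HSC minus LT-HSC 0 of 10 passed, against 0.933% of all genes (164), 0.848% higher and 0.0853% lower. In MPP minus ST-HSC 0 of 10 passed, against 0.193% (34), 0.0683% higher and 0.125% lower. The F test called 0 of 10, against 0.905% of all genes. At such background shares a list of 10 genes would rarely hold a call, so the counts of 0 are not a result about these genes. At an unadjusted limma p under 0.05, the counts were 1, 0 and 1 in the 3 comparisons, Foxo3 being the gene, against 10.6%, 11.1% and 6.89% of all genes. With the replicate number as a block the genes called numbered 157, 473 and 267 in the same order, with no member among them. Array weights gave 9, 61 and 525, with Foxo3 the only member called, in MPP minus ST-HSC.

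Populations did not overlap for 1 of 10 members in MPP minus LT-HSC (Foxo3), where 24.7% of all genes did not overlap, 14.1% with MPP higher and 10.5% with MPP lower. They did not overlap for 2 of 10 in ST-HSC minus LT-HSC (Sod1 above and Txnip below), against 23.3% of all genes, 13.8% with ST-HSC higher and 9.5% lower. The count was 1 of 10 in MPP minus ST-HSC (Foxo3), against 14.2%, 7.75% with MPP higher and 6.43% lower. These shares were no higher than the background. The median difference over the members was 0.19 between MPP and LT-HSC, 0.02 between ST-HSC and LT-HSC and 0.18 between MPP and ST-HSC. Over all genes tested the medians were 0.06, 0.02 and 0.01. Without the replicate 1 arrays of all populations the members' medians were -0.01, -0.06 and 0.01. Differences were positive for 8, 5 and 7 of the 10 members, against 57.2%, 52.0% and 51.7% of all genes. All 10 members lie in the brighter part of the table, and of the 11925 genes left by a filter at the 50th percentile, 71.9%, 64.1% and 53.6% were positive. The medians of these brighter genes were 0.17, 0.11 and 0.02. The members' median stood 0.14 above that of all genes in MPP minus LT-HSC, but 0.027 above that of the brighter genes. In ST-HSC minus LT-HSC the count was 8 when arrays were centred on their medians and 4 with quantile normalization, where the median turned to -0.12. In MPP minus LT-HSC it was 5 without the replicate 1 arrays. The first and the third comparison share the MPP arrays, and the first and the second share the LT-HSC arrays.

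**Figure D3:**
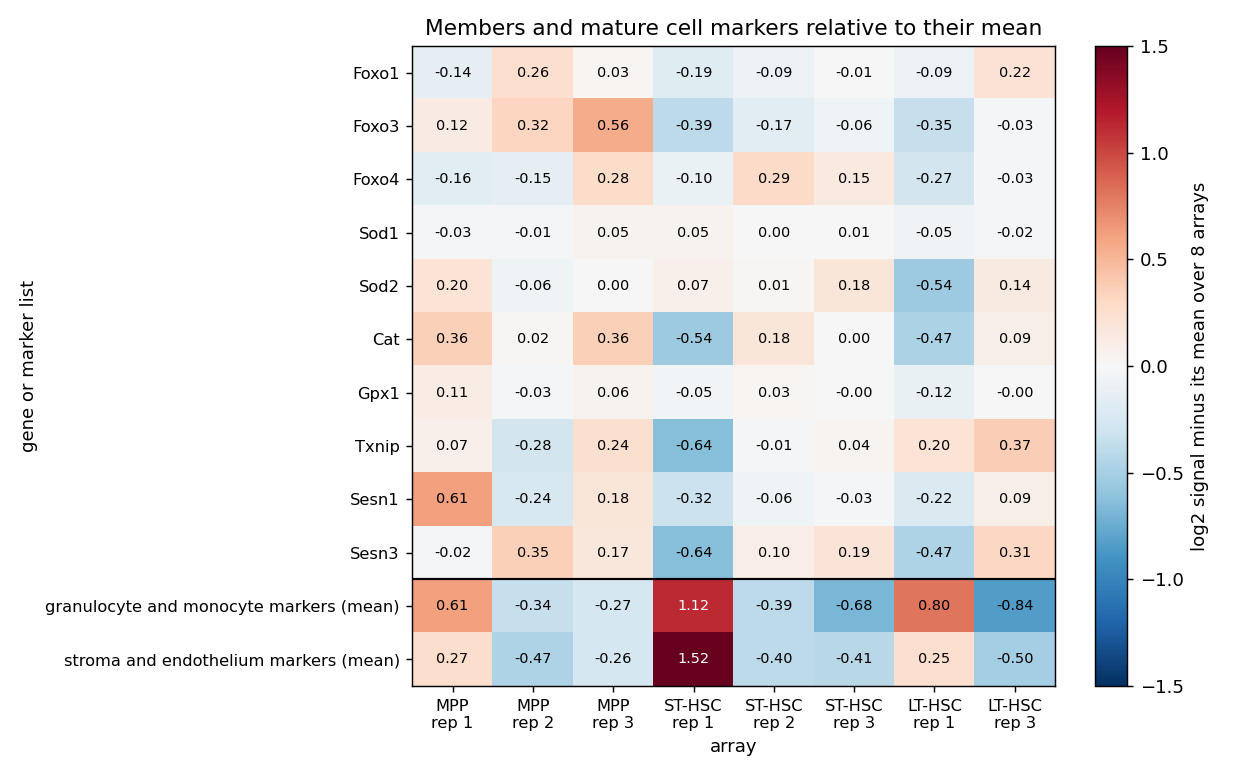
Signal of each gene on each array minus its mean over the 8 arrays (colour and printed value, log2), with the mean of the granulocyte and monocyte markers and of the stroma and endothelium markers beneath the line. ST-HSC replicate 1 and LT-HSC replicate 1 between them hold the lowest value of all 10 genes, and the marker lists are positive on every replicate 1 array.

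The lowest of the 8 arrays was ST-HSC replicate 1 or LT-HSC replicate 1, the arrays that stood apart, for all 10 members. The same held for 48.4% of all genes tested and for 77.7% of the genes with signal above the median, to which all 10 members belong. All 10 members were lower in LT-HSC replicate 1 than in LT-HSC replicate 3, as were 59.7% of all genes tested. The mean of the 10 members relative to all arrays was -0.24 in LT-HSC replicate 1 and -0.27 in ST-HSC replicate 1, and 0.02 to 0.19 on the other arrays. Granulocyte and stroma markers moved the opposite way on those arrays, and their part in the members' values was not tested. MPP replicate 1, which also carried these markers, had a mean of 0.11 over the members. It was the highest array for Sod2, Cat, Gpx1 and Sesn1 and the second lowest for Foxo1, Foxo4 and Sod1.

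Of 45 pairs of members 38 had a positive Pearson r, with a median of 0.41, and the closest pair was Cat and Gpx1 (0.89), followed by Gpx1 and Sesn1 (0.84). The most opposed pair was Sod1 and Txnip (-0.44). These are descriptions over 8 arrays, and the arrays that stood apart are common to every pair.

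The wider pathway was read from 9 lists with 173 further genes, of which 153 were tested. None passed in any comparison or in the F test by limma. At an unadjusted p under 0.05 the counts for MPP against LT-HSC, ST-HSC against LT-HSC and MPP against ST-HSC were 18, 14 and 18, which is 11.8%, 9.15% and 11.8% of the 153, against 10.6%, 11.1% and 6.89% of all genes. Populations did not overlap for 23.5%, 21.6% and 18.3% of the 153 in the same order, against 24.7%, 23.3% and 14.2% of all genes. Within each list the genes with the smallest F test p are described by their means and SD, and none of them was called. Because they were picked by that p, a lack of overlap among them is description only.

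**Figure D4:**
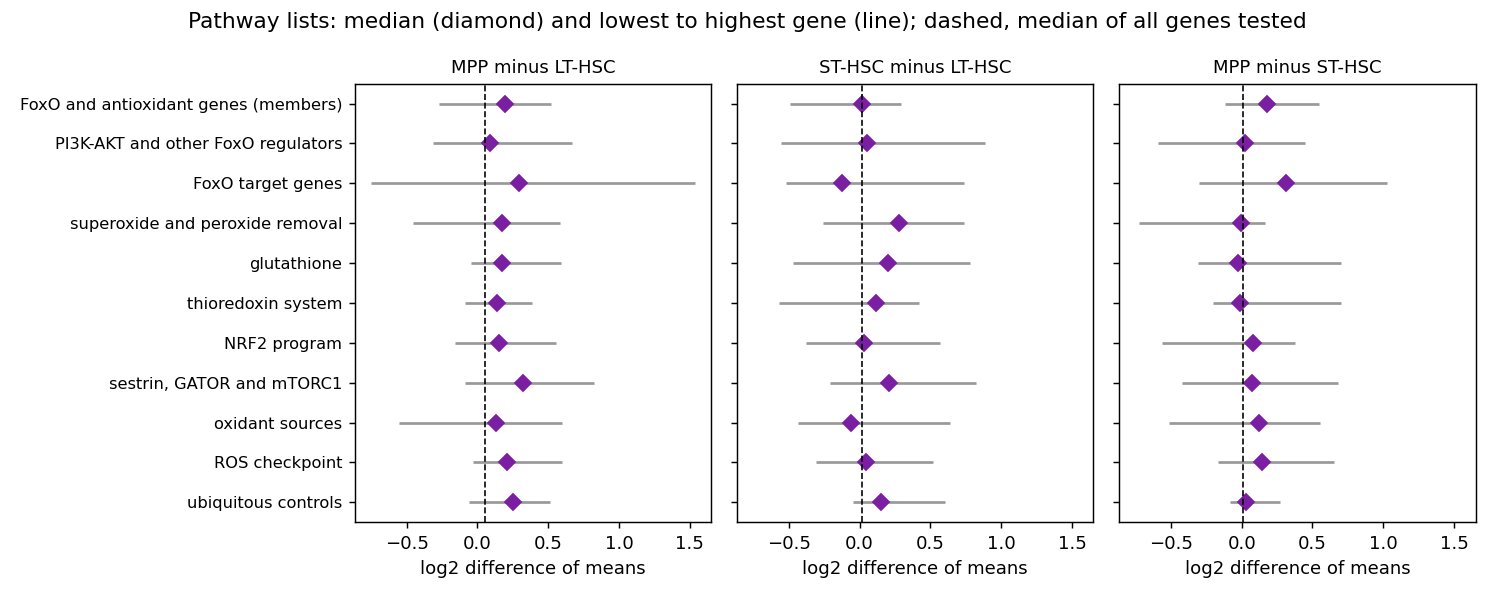
Log2 difference of population means (horizontal axis) for the members, the 9 pathway lists and the ubiquitous control genes; the diamond is the median of a list, the line runs from its lowest to its highest gene, and the dashed line is the median of all genes tested. In MPP minus LT-HSC all medians lie to the right of the dashed line, the control genes (0.25) included, though with quantile normalization that of the PI3K and AKT list (-0.01) does not. Without the replicate 1 arrays of ST-HSC and LT-HSC the medians of that list and of the superoxide and peroxide, glutathione, thioredoxin, NRF2 and checkpoint lists (-0.15 to 0.0017) lie to its left.

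Regulators above FoxO, the PI3K and AKT enzymes and their partners, had medians of 0.09, 0.06 and 0.02 over 24 tested genes in the same 3 comparisons, and the first pair turned to -0.01 and -0.03 with quantile normalization. They were -0.09, -0.06 and -0.01 without the replicate 1 arrays of all populations. Inpp5d, the SHIP1 phosphatase that opposes PI3K in blood cells, averaged 9.15 ± 0.11 in MPP (SD, n = 3), 8.75 ± 0.18 in ST-HSC (SD, n = 3) and 8.48 ± 0.29 in LT-HSC (SD, n = 2; F test limma adjusted p = 0.299). Pik3r1, a regulatory subunit of PI3K, averaged 9.06 ± 0.04, 8.81 ± 0.16 and 9.37 ± 0.10 in the same order (limma adjusted p = 0.361), with no overlap between any populations. Skp2, a ubiquitin ligase subunit, averaged 6.86 ± 0.73, 7.45 ± 0.05 and 6.56 ± 0.30 (limma adjusted p = 0.482).

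Known FoxO targets had medians of 0.30, -0.12 and 0.31 over 31 tested genes, with 25 of 31 positive in MPP minus ST-HSC, where 51.7% of all genes were positive. The list was not split by whether FoxO factors raise or lower a gene, and FoxO activity was not tested. Without the replicate 1 arrays of all populations the MPP minus LT-HSC median was 0.026, and without those of ST-HSC and LT-HSC it was 0.018, with 17 of 31 positive in each case against 23 with all arrays. The MPP minus ST-HSC count was 22, with a median of 0.11, without the replicate 1 arrays of all populations. It was 17, with a median of 0.07, without the replicate 1 arrays of ST-HSC and LT-HSC. Bcl2l11, which encodes the death-promoting protein BIM, averaged 7.13 ± 0.40 in MPP (SD, n = 3), 6.20 ± 0.18 in ST-HSC (SD, n = 3) and 5.60 ± 0.93 in LT-HSC (SD, n = 2; F test limma adjusted p = 0.133). All its MPP arrays lay above all others, and its adjusted p ranged from 0.0156 to 0.325 over 18 alternatives, the lowest without LT-HSC replicate 3, where LT-HSC is the array that stood apart and its spread is taken from the other populations. Sesn2, the remaining sestrin, averaged 5.26 ± 0.14, 4.58 ± 0.12 and 4.78 ± 0.23 in MPP, ST-HSC and LT-HSC (limma adjusted p = 0.174, range 0.0173 with array weights to 0.581), again with every MPP array highest. Cdkn1c, the cell cycle inhibitor p57, averaged 5.62 ± 0.16, 5.93 ± 0.30 and 6.37 ± 0.16 (limma adjusted p = 0.286), with both LT-HSC arrays above all others.

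Enzymes that remove superoxide and peroxide, beyond the members, had medians of 0.18, 0.28 and -0.01 over 12 tested genes, the last being 0.004 with median centring. The MPP minus LT-HSC median was 0.015 without the replicate 1 arrays of all populations. It turned to -0.016 without those of ST-HSC and LT-HSC, with 5 of 12 positive against 9 with all arrays. The mitochondrial peroxiredoxin Prdx3 averaged 8.90 ± 0.25 in MPP (SD, n = 3), 9.09 ± 0.21 in ST-HSC (SD, n = 3) and 8.35 ± 0.28 in LT-HSC (SD, n = 2; F test limma adjusted p = 0.313). Prdx4, the peroxiredoxin of the endoplasmic reticulum, averaged 7.32 ± 0.15, 7.82 ± 0.22 and 7.11 ± 0.39 (limma adjusted p = 0.299), and the methionine sulfoxide reductase Msra 7.21 ± 0.10, 7.17 ± 0.21 and 6.62 ± 0.06 (limma adjusted p = 0.304). For Prdx3 and Msra the LT-HSC arrays lay below those of both other populations.

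Glutathione genes had medians of 0.18, 0.20 and -0.03 over 18 tested genes, with 15, 14 and 8 positive. They were -0.075, 0.031 and -0.096, with 7, 10 and 4 positive, when all replicate 1 arrays were left out. Gclm, a subunit of the enzyme that starts glutathione synthesis, averaged 8.33 ± 0.08 in MPP (SD, n = 3), 8.64 ± 0.07 in ST-HSC (SD, n = 3) and 7.86 ± 0.31 in LT-HSC (SD, n = 2), with no overlap between populations (F test limma adjusted p = 0.169, range 0.0439 without LT-HSC replicate 3, again with a lone LT-HSC array, to 0.474). The membrane glutathione transferase Mgst1 averaged 7.49 ± 0.15, 6.78 ± 0.04 and 7.0 ± 0.49 (limma adjusted p = 0.26, range 0.0223 with array weights to 0.673). Gstm1, another transferase, averaged 7.28 ± 0.03, 6.83 ± 0.23 and 7.30 ± 0.07 (limma adjusted p = 0.383), with ST-HSC below both others on every array.

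Thioredoxin genes had medians of 0.14, 0.12 and -0.01 over 13 tested genes, the last being near 0 with median centring. Leaving out all replicate 1 arrays gave -0.086, -0.14 and -0.11. Arrdc3, an arrestin-domain relative of Txnip, averaged 9.49 ± 0.27 in MPP (SD, n = 3), 8.79 ± 0.38 in ST-HSC (SD, n = 3) and 9.36 ± 0.21 in LT-HSC (SD, n = 2; F test limma adjusted p = 0.345). Its ST-HSC arrays, like those of Txnip, lay below both LT-HSC arrays. Unlike those of Txnip, they also lay below all MPP arrays. Thioredoxin itself, Txn1, averaged 8.18 ± 0.07, 8.31 ± 0.19 and 7.90 ± 0.14 (limma adjusted p = 0.592). Genes of the NRF2 program, the other main antioxidant regulator, had medians of 0.15, 0.03 (-0.04 with quantile normalization) and 0.08 over 13 tested genes, and the smallest F test p was that of Blvrb, a biliverdin reductase (limma adjusted p = 0.6). The NRF2 medians were -0.027, 0.00078 and -0.0048 without the replicate 1 arrays of ST-HSC and LT-HSC.

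Sestrin, GATOR and mTORC1 genes had medians of 0.32, 0.21 and 0.07 over 22 tested genes, with 21 positive in MPP minus LT-HSC. Ubiquitous control genes had medians of 0.25, 0.15 and 0.03 with 9 of 10 positive there. Without the replicate 1 arrays of ST-HSC and LT-HSC the MPP minus LT-HSC median was 0.13 for the list (16 of 22 positive) and 0.033 for the controls (5 of 10). Without those of all populations it was 0.088 for the list and -0.00059 for the controls. The list was not tested against the controls. Mlst8, a subunit of mTOR complexes, averaged 6.32 ± 0.27 in MPP (SD, n = 3), 6.32 ± 0.18 in ST-HSC (SD, n = 3) and 5.50 ± 0.44 in LT-HSC (SD, n = 2; F test limma adjusted p = 0.225). Wdr59, of the GATOR complex that relays the sestrin signal, averaged 6.80 ± 0.06, 6.50 ± 0.11 and 6.28 ± 0.14 (limma adjusted p = 0.369).

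Oxidant sources had medians of 0.13, -0.06 and 0.12 over 11 tested genes, where -0.06 turned to 0.05 with median centring and 0.01 with quantile normalization. The NADPH oxidase subunits Ncf4 and Ncf1 averaged 6.69 ± 0.31 and 6.51 ± 0.08 in MPP (SD, n = 3), 6.14 ± 0.19 and 6.10 ± 0.27 in ST-HSC (SD, n = 3), and 6.09 ± 0.01 and 6.04 ± 0.10 in LT-HSC (SD, n = 2; F test limma adjusted p = 0.337 and 0.464). All MPP arrays were highest for both, but for Ncf1 barely so, with MPP replicate 3 at 6.417 and ST-HSC replicate 1 at 6.413. Nox4 averaged 5.04 ± 0.27, 5.16 ± 0.22 and 5.59 ± 0.03 (limma adjusted p = 0.492), with both LT-HSC arrays highest. Genes of the checkpoint that senses reactive oxygen species had medians of 0.21, 0.04 and 0.14 over 12 tested genes, with 11, 8 and 11 positive. Leaving out the replicate 1 arrays of all populations gave medians of -0.12, -0.096 and 0.018, with 4, 2 and 6 positive. Without those of ST-HSC and LT-HSC they were -0.15, -0.096 and 0.049. The smallest F test p was that of the p53 target Trp53inp1, which averaged 7.03 ± 0.22, 6.38 ± 0.06 and 6.69 ± 0.46 (limma adjusted p = 0.348, range 0.0371 with array weights to 0.769).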

How the data were processed

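Total RNA was amplified and biotin-labelled (Ovation Pico WTA V2, then Encore Biotin), per the labels' protocols. The authors deposited log2 values made with RMA, per the submitters' processing notes, for 33649 probe sets. That the scale is log2 follows from the range of values; version and annotation are not given in the sources used here. Of the probe sets, 23521 had 1 gene symbol, 1814 several and 8314 none. Genes whose best probe set averaged at least 3.88, the 25th percentile, were tested. All 8 arrays entered 1 fit in limma 3.58.1 (R 4.3.3), with 5 residual degrees of freedom, and p-values had Benjamini-Hochberg adjustment over 17576 genes, with calls at 0.05. Each gene's spread was drawn toward a prior SD of 0.229, taken from all genes, with 5.93 prior degrees of freedom. The fit was tested on simulated data with independent arrays of equal spread within a gene. The simulation held no arrays that stood apart and no link by replicate number, so it does not cover those features of the real arrays.

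The members and lists were chosen with earlier results of these data known. Of 283 list entries in 18 lists, 253 matched a gene. Named pathway genes were up to 6 called members a list and the 3 uncalled ones with the smallest F test p, of which some are described. For each of Foxo3 and Txnip the 3 most correlated genes were named.

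Deviations from group means of same-numbered ST-HSC and MPP arrays correlated at 0.15, 0.23 and 0.21. The replicate number was therefore used as a block in 1 alternative, while the main fit used no pairing. Same-numbered ST-HSC and LT-HSC arrays correlated at 0.54 and 0.47. With 2 LT-HSC arrays the deviations mirror each other, so each value recurs with opposite sign for the other LT-HSC array. The values 0.54 and 0.47 are therefore not independent of each other. Same-numbered MPP and LT-HSC arrays gave -0.16 and 0.10, whereas MPP replicate 2 with LT-HSC replicate 1 gave 0.22. Alternatives changed the filter, scaling, probe set rule, model and arrays; those for the list medians were chosen after seeing the data. Few arrays limit precision.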

Additional observations from a re-analysis of the deposited data

How the results depend on the processing

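The 30 member differences were recomputed under 19 alternatives, giving 570 values. Of these, 532 kept direction and side of the threshold, 37 turned sign without passing it, and 1 passed it (Foxo3 in MPP minus ST-HSC with array weights, the 1 member called). Many of the 532 could not have changed direction. The filter, a prior spread that follows intensity, and a fit to the compared populations only leave every difference as it was. Averaging probe sets could alter only Foxo1. Leaving out an array does not alter the comparison between the other populations. The count of 532 is therefore not a measure of stability. Median centring moved the median of all genes to 0.18 in MPP minus LT-HSC and 0.13 in ST-HSC minus LT-HSC, a shift common to all genes. Relative to all genes the members' medians were 0.14 and 0.0016 in the main setting, 0.0076 and -0.15 with quantile normalization, and 0.012 and -0.055 without the replicate 1 arrays of ST-HSC and LT-HSC. The cause of the changes was not tested. In ST-HSC minus LT-HSC array weights turned Foxo3 to 0.036 and Sesn3 to 0.14. Median centring turned Foxo3 to 0.091, Sesn1 to 0.035 and Sesn3 to 0.074, quantile normalization turned Cat to -0.10, and the replicate block turned Sesn1 to 0.011. Omitting the replicate 1 arrays of ST-HSC and LT-HSC, or of all populations, turned Cat to -0.000999 and Sod2 to -0.041. Omitting single arrays gave ranges across 0 for Cat (-0.21 to 0.35), Gpx1 (-0.0019 to 0.11), Sod2 (-0.047 to 0.63), Foxo3 (-0.18 to 0.14), Sesn1 (-0.23 to 0.079) and Sesn3 (-0.43 to 0.35).

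In MPP minus LT-HSC median centring turned Foxo1 to 0.10. Omitting the replicate 1 arrays of ST-HSC and LT-HSC turned Sesn3 to -0.14 and Sod2 to -0.088, and omitting those of all populations turned Sesn1 to -0.12, Sesn3 to -0.045 and Sod2 to -0.16. Single omissions ranged across 0 for Foxo1 (-0.17 to 0.14), Foxo4 (-0.0064 to 0.26), Sod2 (-0.088 to 0.59) and Sesn3 (-0.14 to 0.64). In MPP minus ST-HSC array weights turned Sod1 to 0.014, and omitting all replicate 1 arrays turned Sod1 to 0.011 and Txnip to -0.030. Single omissions gave -0.12 to 0.014 for Sod2.

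Genes called in MPP minus LT-HSC (22) numbered 5 with median centring, 37 with quantile normalization, 157 with the replicate block, 9 with array weights, 14 without all replicate 1 arrays, and 6 to 615 without single arrays (the highest without LT-HSC replicate 3). In ST-HSC minus LT-HSC (164) they numbered 104 with median centring, 473 with the block, 61 with weights, 100 with only the 2 populations, 70 without all replicate 1 arrays, and 17 to 825 without single arrays (LT-HSC replicates 1 and 3). Each count without an LT-HSC array rests on 1 LT-HSC array, whose spread is assumed to equal that of the others. Limma called 0 there without the replicate 1 arrays of ST-HSC and LT-HSC, with 1348 genes at an unadjusted p under 0.05. In MPP minus ST-HSC (34) they numbered 1 with median centring, 267 with the block, 525 with weights, 71 with only the 2 populations, 78 and 104 with the replicate 1 arrays omitted, and 1 to 71 without single arrays. Members higher in ST-HSC than LT-HSC (5) numbered 8 with median centring, 3 without the replicate 1 arrays, and 2 to 8 without single arrays. Members higher in MPP than LT-HSC (8) numbered 5 without all replicate 1 arrays. The block changed no member's call. Of the other pathway genes, the F test called 3 with the block, 3 with weights and 5 without LT-HSC replicate 3, alternatives added after seeing the data.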
